A study of Arabidopsis thaliana with 6 samples.

Results

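The 10 genes described here are enzymes of flavonoid synthesis and MYB factors that switch some of them on. They were taken by gene identifier from a table of 33557 Arabidopsis thaliana genes that compares seedlings of the cbe1 mutant with seedlings of the wild-type accession Col0. The set holds 5 early enzymes (TT4, TT5, F3H, TT7 and FLS1), 3 late enzymes (DFR, LDOX and UF3GT) and 2 regulators (MYB12 and MYB111). All 10 were found, and all 10 were tested by the authors.

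Poly(A) RNA from whole seedlings, 7 days old, was sequenced in 3 libraries of cbe1 and 3 libraries of Col0, called biological replicates in the labels. Both genotypes were raised alike on MS plates with 1% sucrose, with 16 hours of light and 8 hours of darkness. CBE1, short for Conserved Binding of eIF4E 1, is a plant partner of eIF4E, the factor that holds the mRNA cap when translation starts. The sources used here do not give the kind of cbe1 mutation, the number of alleles or the hour of harvest. The CBE1 transcript (AT4G01290, identified from knowledge of the study) had 4.48 FPKM in cbe1 and 13.8 FPKM in Col0, a fall called in the authors' deposited table (q = 1.41e-12). The deposited table gives 1 FPKM value per gene and genotype (fragment counts divided by transcript length and by library size), so no spread between libraries is known and depth is unknown. Of 4 light-harvesting and Rubisco markers of green tissue 0 were called, with 3 above and 1 below a log2 fold change of 0. The most abundant, RBCS3B and LHCA1, had 6890 and 5563 FPKM in cbe1 and 5964 and 5615 FPKM in Col0. LHCB2.1 had 2461 FPKM in cbe1 and 1654 FPKM in Col0 (log2 0.57, q = 0.252 in the authors' deposited table). A call needed a log2 fold change of 1.26 for RBCS3B and 1.25 for LHCA1, so their missing calls do not show equal levels. Of 4 root markers 0 were called, with 2 above and 2 below a log2 fold change of 0. The root β-glucosidase PYK10 had 1583 FPKM in cbe1 and 2440 FPKM in Col0 (log2 −0.62), and CASP1, a protein of the root endodermis, had 29.8 FPKM in cbe1 and 19.4 FPKM in Col0 (log2 0.62, q = 0.116 in the authors' deposited table). In bulk RNA of this kind, fewer cells of a type and less RNA per cell cannot be told apart.

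Flavonoids are phenolic compounds that plants make from phenylalanine and malonyl-CoA. Chalcone synthase makes the first flavonoid skeleton, and the early enzymes turn it into dihydroflavonols, from which FLS1 makes the flavonols that shield seedlings from ultraviolet light. DFR competes with FLS1 for the same dihydroflavonols and leads to the anthocyanin pigments. In Arabidopsis seedlings the early genes are known targets of MYB12 and MYB111, which act without a bHLH partner, whereas the late genes depend on complexes of a MYB, a bHLH and a WD40 protein.

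The early genes are known for short promoter elements bound by MYB factors, so the 500 bases before each start codon were searched on both strands. The sequence is that of the RefSeq TAIR10.1 assembly, and distances count back from the start codon. The AC-I element ACCTACC, which R2R3-MYB factors can bind, was found in 3 of the 5 early genes, in 0 of the 3 late genes and in 0 of the 2 regulators. Among all 27443 protein-coding genes of the nuclear chromosomes, 2.16% had it in the same window. The stretches that hold it are given on the strand of the gene, with matches to any searched element in capitals. In F3H the element lies on the other strand and reads GGTAGGT.
TT4, chr5:4488606-4488635, plus strand: cccgtccatctaACCTACCacactctcatc
TT5, chr3:20431499-20431528, minus strand: gtaactattgctACCTACCcttctctcttc
F3H, chr3:19025254-19025283, plus strand: cagtagtaccgtGGTAGGTagctagcgacc

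The elements lay 144 bases before the start codon in TT4, 143 in F3H and 101 in TT5. The G-box CACGTG, which bZIP and bHLH factors can bind and which reads alike on both strands, was found in 2 early genes, all 3 late genes and MYB12, against 9.34% of all windows. DFR, UF3GT and the regulator MYB12 each had 2 copies. In DFR both copies flank a match to the AC-II element ACCAACC on the other strand (5.47% of all windows), and in TT5 a G-box lies 143 bases before the start codon. These stretches are shown to set the late gene DFR beside TT5.
DFR, chr5:17166018-17166047, minus strand: cCACGTGcttctccGGTTGGTactCACGTG
TT5, chr3:20431542-20431571, minus strand: gaaaacgaaagtaCACGTGcttacacatcc

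TT4 also held the AC-III element ACCTAAC 66 bases before its start codon (4.66% of all windows). The searched windows run up to the start codon, so they can include transcribed bases. The AC-I matches of TT4 and F3H and the AC-III match of TT4 lie inside the RefSeq genes. TT7, FLS1 and MYB111 had no match to these 4 elements. The elements were chosen for their known roles and do not overlap each other in these genes. A match describes letters and does not show binding.

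**Figure D1:**
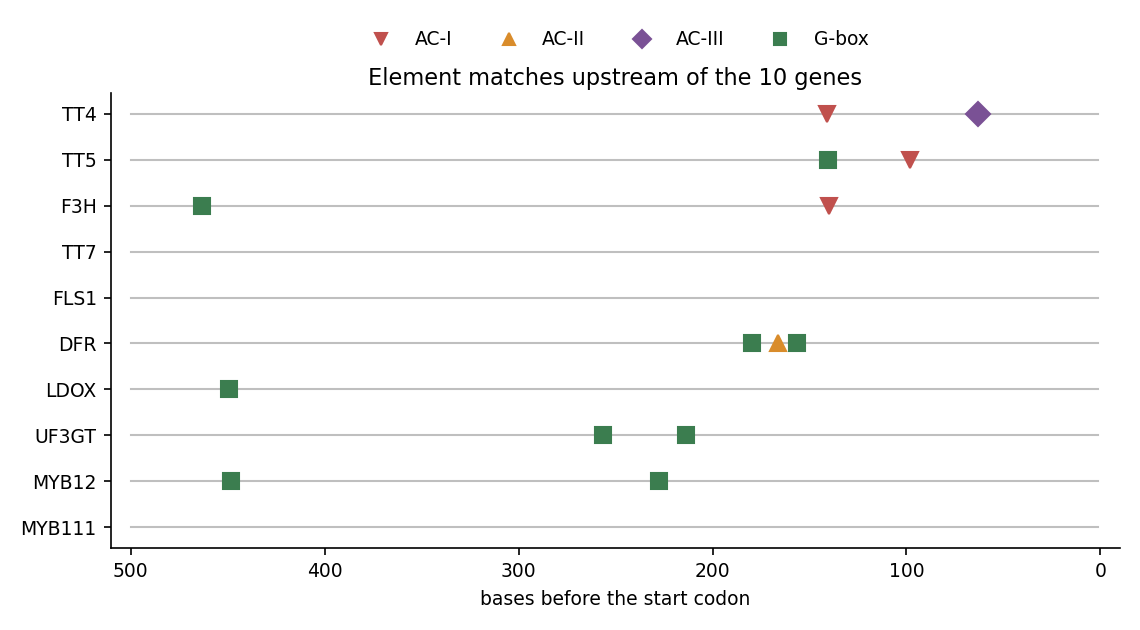
Matches to 4 short elements in the 500 bases before the start codon of each gene, with distance in bases on the x axis and 1 line per gene. Of the 10 genes, TT4, TT5 and F3H have AC-I matches, G-boxes lie in all 3 late genes, and TT7, FLS1 and MYB111 have no match.

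The 3 early enzymes TT4, F3H and FLS1 were called higher in cbe1, and no member was called lower. A gene is called here when the authors' deposited q-value is below 0.05, and by that rule 3 of the 10 members were called higher. Among all 22303 tested genes, 3.31% were called higher, 1.63% were called lower and 4.94% were called in all. The 3 calls are all early steps, and 0 of 3 late enzymes and 0 of 2 regulators were called by the authors' Cuffdiff test. By unadjusted p below 0.05 as deposited, before any recentring, all 5 early enzymes were higher, and 0 late enzymes and 0 regulators passed. Among all tested genes 16.7% passed that unadjusted threshold, and 12.5% were higher. After recentring on the median gene, the members' rises were 2, TT4 and FLS1, where 1.33% of all genes were called higher and 2.99% lower.

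The median tested gene with a mean of at least 1 FPKM was itself higher in cbe1, by 0.17 on the log2 scale. All log2 fold changes below are those of cbe1 over Col0 as deposited, with this shift left in. Each comes with a 95% interval, which takes the error from the ratio of the fold change to the authors' test statistic. Such an interval is only as good as the authors' error model. The deposited p-values rest on the same model, and each gene's own spread between libraries is not known.

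TT4 (AT5G13930), which encodes chalcone synthase, the entry enzyme of the pathway, was the most abundant member in both genotypes. It had 45.1 FPKM in cbe1 and 26.8 FPKM in Col0. The log2 fold change was 0.75 (95% interval 0.40 to 1.11), and q = 0.00215 in the authors' deposited table. Its deposited locus (chromosome 5, 4488688 to 4495585, TAIR10) also covers AT5G13940, a gene on the opposite strand whose end meets that of TT4. That neighbour had 0.0202 FPKM in cbe1 and 0.0344 FPKM in Col0, far under TT4.

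TT5 (AT3G55120; chromosome 3, 20430114 to 20431470) encodes chalcone isomerase, the second enzyme. It had 16.2 FPKM in cbe1 and 11.5 FPKM in Col0. The log2 fold change of 0.49 (0.04 to 0.95) did not pass adjustment (p = 0.0335 and q = 0.243 in the authors' deposited table). TT5 had the smallest log2 fold change of the 5 early enzymes. Relative to the median gene it was 0.32, with a 95% interval of −0.14 to 0.77 that spans 0.

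F3H (AT3G51240) encodes flavanone 3-hydroxylase, which makes dihydroflavonols. It had 12.8 FPKM in cbe1 and 7.13 FPKM in Col0. Its log2 fold change was 0.84 (0.30 to 1.38), and q = 0.0485 in the authors' deposited table lies just under the threshold. Recentred on the median gene, F3H was no longer called (q = 0.196). The locus (chromosome 3, 19025110 to 19026872) is shared with AT3G51238, a long non-coding RNA on the opposite strand that overlaps F3H. AT3G51238 had 0.0125 FPKM in cbe1 and 0.0372 FPKM in Col0, and the sources used here do not say whether reads were counted by strand.

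TT7 (AT5G07990; chromosome 5, 2560394 to 2563109) encodes flavonoid 3'-hydroxylase, which adds the hydroxyl group that separates quercetin from kaempferol. It was the least abundant early enzyme, with 2.22 FPKM in cbe1 and 1.20 FPKM in Col0. Its log2 fold change of 0.89 (0.19 to 1.60) was close to that of FLS1 and was not called (p = 0.0131 and q = 0.143 in the authors' deposited table). The interval of TT7 was wider than those of the other early enzymes. Relative to the median gene it ran from 0.01 to 1.43.

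FLS1 (AT5G08640; chromosome 5, 2803957 to 2805606) encodes flavonol synthase, at the branch to flavonols. It had 16.2 FPKM in cbe1 and 8.51 FPKM in Col0. The log2 fold change of 0.93 (0.48 to 1.38) was the largest of the 10 members, with q = 0.00314 in the authors' deposited table. FLS1 was alone on its locus. Of the 21932 tested genes above 0 in both genotypes, 5.28% had a log2 fold change at least as high, against 8.34% for TT4, 6.64% for F3H and 18.9% for TT5.

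**Figure D2:**
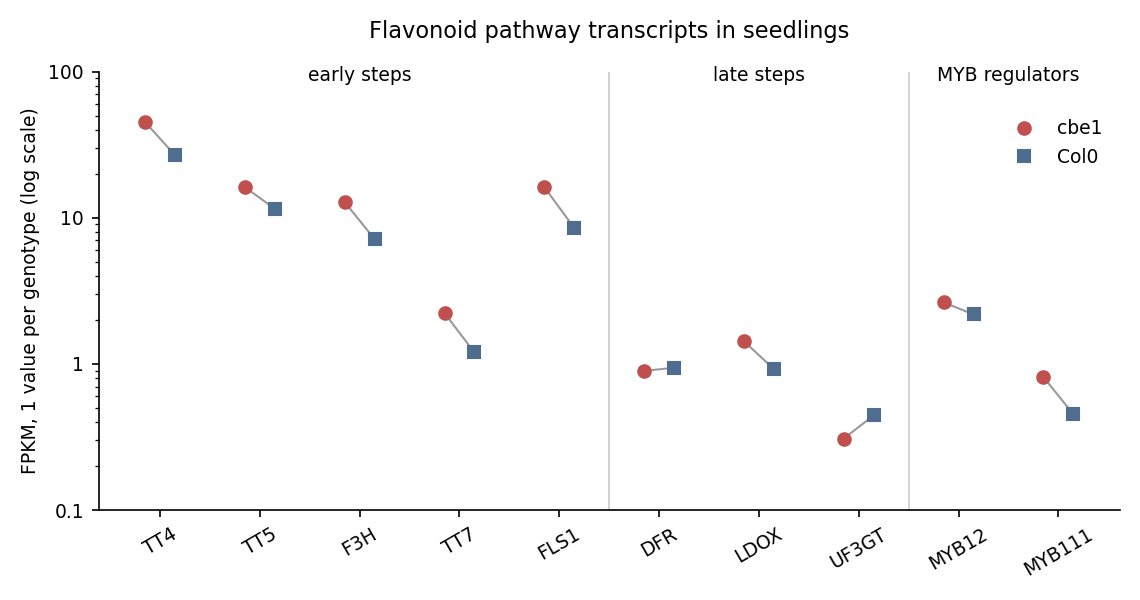
FPKM of the 10 genes on a log axis, 1 value per genotype from the authors' table (cbe1 circles, Col0 squares), in order of the pathway. The 5 early steps lie higher in cbe1, TT4 with 45.1 FPKM in cbe1 and 26.8 FPKM in Col0, and the late steps lie at 1.43 FPKM or below.

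The late enzymes were scarce in both genotypes, and none was called. DFR (AT5G42800; chromosome 5, 17164141 to 17165918), the reductase that opens the anthocyanin branch, had 0.896 FPKM in cbe1 and 0.940 FPKM in Col0. Its log2 fold change was −0.07 (−1.003 to 0.87), and its q in the authors' deposited table was 0.971. LDOX (AT4G22880; chromosome 4, 12004768 to 12006209), the dioxygenase that makes anthocyanidins, had 1.43 FPKM in cbe1 and 0.920 FPKM in Col0. The log2 fold change of LDOX was 0.64 (−0.44 to 1.71), and q was 0.628 in the authors' deposited table. UF3GT (AT5G54060; chromosome 5, 21936879 to 21938369), a glycosyltransferase of flavonoids also named UGT79B1, was the least abundant member. It had 0.308 FPKM in cbe1 and 0.445 FPKM in Col0, with a log2 fold change of −0.53 (−1.73 to 0.68) and a q of 0.746 in the authors' deposited table. The 3 late enzymes thus did not share a direction, with LDOX above 0 and DFR and UF3GT below it.

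The median log2 fold change was 0.84 over the 5 early enzymes and −0.07 over the 3 late ones, against 0.18 over all tested genes above 0 in both genotypes. These medians are descriptions, and no test was made over either group. In 14 of the 15 pairs of an early and a late enzyme the early one had the higher log2 fold change, with differences from −0.14 (TT5 and LDOX) to 1.46 (FLS1 and UF3GT). The 95% intervals of the 2 enzymes overlapped in all 15 pairs, which does not test their difference. With the errors taken as independent, the 95% interval of the difference itself lay above 0 in 4 of the 15 pairs, those of TT4, F3H, TT7 and FLS1 with UF3GT, and its lower bound in these was 0.02 to 0.17. These intervals were computed after the values were seen, are not adjusted for the number of pairs, and in the 4 pairs share the single value of UF3GT. Early and late steps were not compared as groups by a test. The late intervals allow rises as large as that of FLS1 for LDOX and falls for all 3 enzymes.

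**Figure D3:**
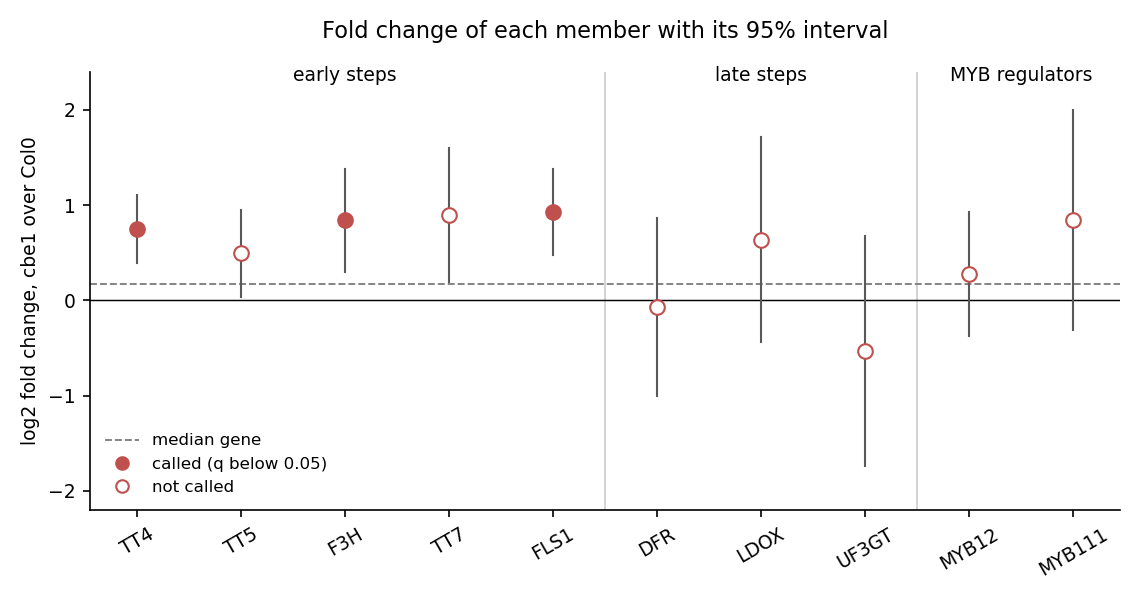
Log2 fold change of cbe1 over Col0 for each gene, with bars for the 95% interval taken from the authors' test statistic and a dashed line at the median gene (0.17). Filled points are called. The calls are TT4, F3H and FLS1, and the bars of the late steps and regulators cross 0.

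Abundance limited what could be called. At the error of each gene, a call needed a log2 fold change of 0.55 for TT4, 0.70 for FLS1, 0.70 for TT5, 0.84 for F3H and 1.09 for TT7. For the late enzymes it needed 1.44 for DFR, 1.66 for LDOX and 1.86 for UF3GT. Among tested genes with a mean of 5 to 50 FPKM, where TT4, TT5, F3H and FLS1 lie, 4.42% were called higher. From 1 to 5 FPKM this share was 2.20%, and from 0.2 to 1 FPKM it was 0.347%. The deposited test thus had least reach where DFR and UF3GT lie, and their missing calls show no lack of change.

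**Figure D4:**
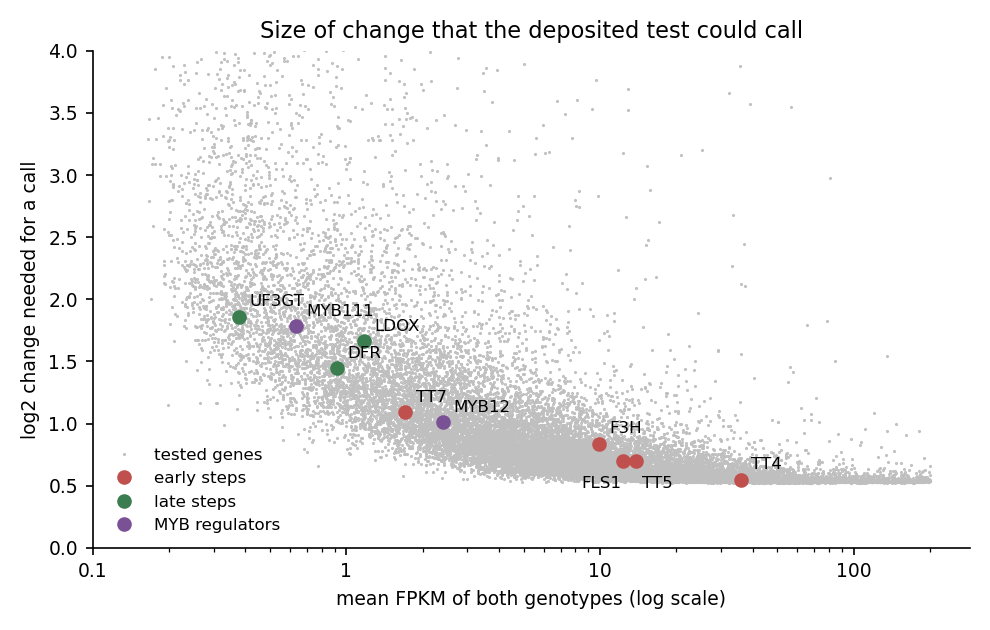
Log2 change that would have been called, against the mean FPKM of both genotypes on a log axis, for all tested genes within the axes (grey) and the 10 members (coloured). The need falls with abundance, from 1.86 for UF3GT to 0.55 for TT4.

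The early enzymes stood in similar proportions in both genotypes. Their summed level was 92.5 FPKM in cbe1 and 55.1 FPKM in Col0. TT4 made up 48.8% of that sum in cbe1 and 48.6% in Col0, and FLS1 made up 17.5% in cbe1 and 15.4% in Col0. TT5 had a share of 17.5% in cbe1 and 20.9% in Col0. The summed level of the late enzymes was 2.63 FPKM in cbe1 and 2.31 FPKM in Col0.

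At the branch point the level of FLS1 was 18.1 times that of DFR in cbe1 and 9.05 times that of DFR in Col0. The early enzymes summed to 35.1 times the late ones in cbe1 and 23.9 times in Col0. These ratios of FPKM carry the wide error of DFR and were not tested. The order of levels was TT4, FLS1, TT5, F3H, MYB12, TT7, LDOX, DFR, MYB111, UF3GT in cbe1. In Col0 the order differed by TT5 standing above FLS1 and DFR above LDOX. Without values per library, whether neighbours in these orders differ could not be tested.

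The MYB factors were much less abundant than most of the enzymes they are known to activate, and neither was called. MYB12 (AT2G47460; chromosome 2, 19476337 to 19479478) had 2.64 FPKM in cbe1 and 2.18 FPKM in Col0. Its log2 fold change was 0.28 (−0.38 to 0.93), with q = 0.758 in the authors' deposited table. MYB111 (AT5G49330; chromosome 5, 19998952 to 20001378) had 0.813 FPKM in cbe1 and 0.453 FPKM in Col0. The log2 fold change of MYB111 was 0.85 (−0.31 to 2.0), with q = 0.513 in the authors' deposited table. A call needed 1.01 for MYB12 and 1.78 for MYB111, so a change of MYB111 of the size seen for F3H or FLS1 was not detectable. Their coding sequences are 56.6% identical, in a global alignment over RefSeq coding sequences. Gap columns are counted in its length, as in all identities given here. The third factor of the group, MYB11, was not tested by the authors and had 0.127 FPKM in cbe1 and 0.0966 FPKM in Col0.

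The rest of the pathway was described from 7 lists with 64 genes, of which 50 were tested. Of these, 1 was called higher and 3 were called lower, beside 3.31% called higher and 1.63% called lower among all tested genes. The median log2 fold change of the 50 was 0.19, against 0.18 over all tested genes above 0 in both genotypes. At the entry from phenylalanine, 1 of 8 genes was called higher and 0 were called lower. PAL3, a phenylalanine ammonia-lyase, had 3.90 FPKM in cbe1 and 1.83 FPKM in Col0 (log2 1.09, q = 0.0253 in the authors' deposited table). After recentring on the median gene this call was lost (q = 0.0950). The most abundant entry genes were not called: C4H, cinnamate 4-hydroxylase, had 51.3 FPKM in cbe1 and 48.2 FPKM in Col0, and PAL2 had 33.8 FPKM in cbe1 and 39.4 FPKM in Col0.

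Of 14 genes listed for the flavonol branch beside FLS1, 11 were tested and 0 were called by the Cuffdiff test. The relatives of FLS1 among them are listed by family, and whether they make flavonols was not examined here. The median log2 fold change of those 11 was 0.32. OMT1, an O-methyltransferase, had 117.2 FPKM in cbe1 and 118.6 FPKM in Col0. FLS5, a relative of FLS1 with a coding sequence 64.4% identical to it, had 55.6 FPKM in cbe1 and 53.5 FPKM in Col0. FLS5 stood at 3.44 times the level of FLS1 in cbe1 and 6.29 times in Col0. The 1 gene of this list with an unadjusted p below 0.05 was AT2G22590, named after its values were seen and annotated as a UDP-glycosyltransferase, with 0.773 FPKM in cbe1 and 0.233 FPKM in Col0 (q = 0.114 in the authors' deposited table). The 3 untested genes were FLS6, UGT78D3 and UGT73C6, which had 0.0180, 0.0447 and 0.0379 FPKM in cbe1 and 0.0302, 0.0179 and 0.0717 FPKM in Col0.

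In the list of genes that decorate and carry anthocyanins, 3 of 7 were called lower and 0 were called higher. Among all tested genes, 1.63% were called lower and 3.31% higher. AT1G03940, which RefSeq annotates as an HXXXD-type acyl-transferase, had 1.997 FPKM in cbe1 and 5.60 FPKM in Col0. Its log2 fold change was −1.49 (−2.04 to −0.93), with q = 2.59e-05 in the authors' deposited table. AT1G03495, of the same family, had 2.88 FPKM in cbe1 and 7.13 FPKM in Col0, a log2 fold change of −1.31 (−1.79 to −0.82). The q of AT1G03495 in the authors' deposited table was 2.31e-05. The coding sequences of these genes were 72.1% identical with gap columns counted, in an alignment in which one is shorter (1041 bases, against 1410). Over the bases that both genes have, the identity is therefore higher. Reads may have been split between these genes, which need not be independent.

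SCPL10, a serine carboxypeptidase-like protein of a family that includes acyltransferases, was the third call. It had 9.66 FPKM in cbe1 and 17.4 FPKM in Col0, with a log2 fold change of −0.85 (−1.25 to −0.46) and q = 0.00165 in the authors' deposited table. Its coding sequence was 86.3% identical to that of SCPL9, and both have 1314 bases. This percentage does not compare directly with the 72.1% above, which gap columns lower. Whether reads were split between SCPL10 and SCPL9 is not known. BGLU10, annotated as a β-glucosidase, had 13.2 FPKM in cbe1 and 17.2 FPKM in Col0 and was not called (log2 −0.38, q = 0.306 in the authors' deposited table). The list median was −0.38, or −0.55 relative to the median gene, and the 3 falls kept their calls with the recentred statistic (q from 6.79e-07 to 4.56e-05), by which 2.99% of all tested genes were called lower. The other genes of the list, GSTF12, AT4G14090 and AT5MAT, had log2 fold changes of 0.64, 0.95 and −0.05 and were not called. AT4G14090 had 0.910 FPKM in cbe1 and 0.472 FPKM in Col0, with a log2 interval of −0.87 to 2.77. Its locus is shared with AT4G14100, which had 28.6 FPKM in cbe1 and 36.4 FPKM in Col0.

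**Figure D5:**
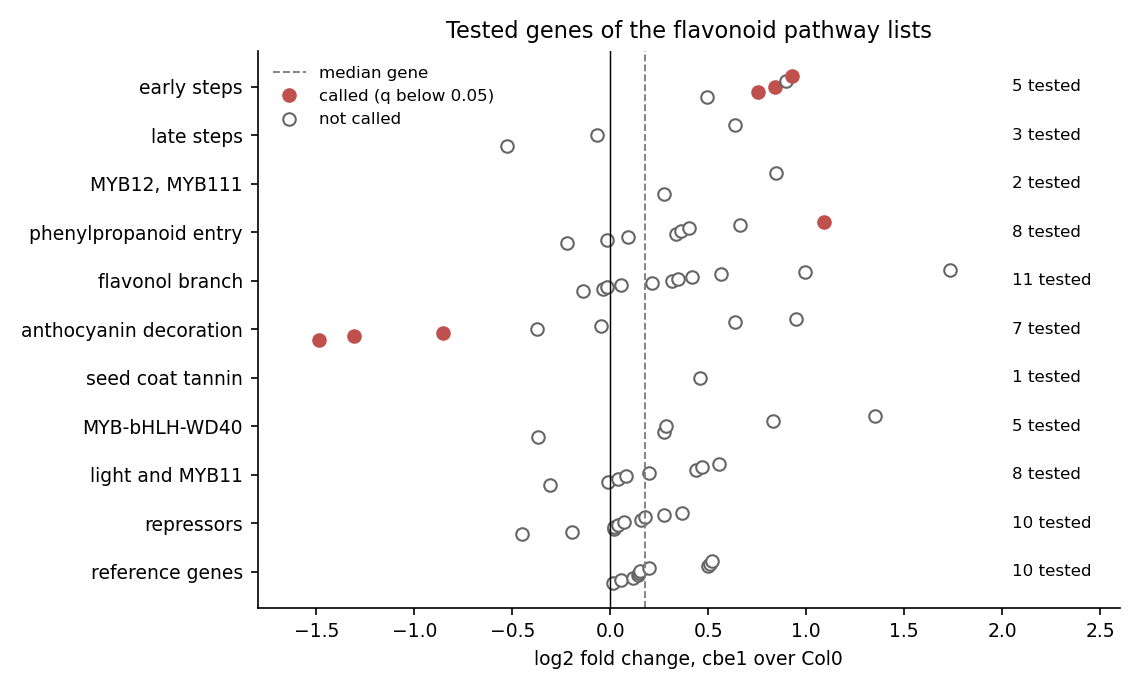
Log2 fold change of cbe1 over Col0 for every tested gene of the 10 members, the 7 pathway lists and the reference genes, 1 point per gene, with called genes filled and a dashed line at the median gene. Calls lie to the right among early steps and PAL3, and to the left among the anthocyanin decoration genes.

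No regulator outside the members was called by the deposited q. Of 9 genes, those of the MYB, bHLH and WD40 complexes and the WRKY gene TTG2, 5 were tested, 0 were called and 0 had an unadjusted p below 0.05. Among all tested genes 4.94% were called and 16.7% had such a p, so 0 calls in a short list do not set it apart. TTG1, the WD40 protein, had 19.7 FPKM in cbe1 and 16.3 FPKM in Col0, and EGL3, a bHLH factor, had 1.67 FPKM in cbe1 and 1.37 FPKM in Col0. The anthocyanin activator PAP2 and the bHLH factor TT8 were not tested, with 0.0527 and 0.101 FPKM in cbe1 and 0.0780 and 0.150 FPKM in Col0. PAP1, also an anthocyanin MYB, was tested and not called. It had 0.677 FPKM in cbe1 and 0.874 FPKM in Col0 (log2 −0.37, 95% interval −1.55 to 0.81). A call needed a log2 fold change of 0.67 for TTG1, 1.48 for EGL3, 1.82 for PAP1, 1.91 for TTG2 and 2.48 for the bHLH factor GL3.

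Of 9 light-linked regulators and MYB11 together, 8 were tested, 0 were called and 0 had an unadjusted p below 0.05. The ultraviolet receptor UVR8 had 52.1 FPKM in cbe1 and 50.8 FPKM in Col0, and the B-box factor LZF1 had 42.7 FPKM in cbe1 and 40.4 FPKM in Col0. HY5, a light-signalling bZIP factor named after its values were seen, had 13.5 FPKM in cbe1 and 9.93 FPKM in Col0 (q = 0.359 in the authors' deposited table). Of 10 repressors, all tested, 0 were called and 1 had an unadjusted p below 0.05. Both lists stand beside 4.94% called and 16.7% with such a p among all tested genes. The repressor with such a p, AT1G23390, is annotated as a Kelch repeat F-box protein. AT1G23390 had 151.7 FPKM in cbe1 and 207.6 FPKM in Col0 (log2 −0.45, q = 0.143 in the authors' deposited table). Recentred on the median gene it was called lower (q = 0.0185). MYBL2, a small MYB repressor of anthocyanin genes, had 74.7 FPKM in cbe1 and 71.1 FPKM in Col0. The median of the repressors was 0.05 as deposited and −0.12 relative to the median gene, and that of the light-linked list 0.14 and −0.04, so both signs depend on the scaling.

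Markers of seed tissue moved with the genotype. Of 4 storage genes, CRA1, CRC and OLEO2 rose and SESA1 fell, and their summed level was 88.0 FPKM in cbe1 and 35.7 FPKM in Col0. SESA1 went against that sum, with 0.179 FPKM in cbe1 and 3.43 FPKM in Col0 (log2 −4.26, q = 4.59e-05 in the authors' deposited table). Recentred on the median gene, CRC was no longer called (q = 0.0528). Of 7 genes of tannin-making seed coat cells, which also use the early enzymes, 6 were untested and summed to 0.203 FPKM in cbe1 and 0.499 FPKM in Col0. None was listed at 0. The tannin enzyme BAN had 0.0532 FPKM in cbe1 and 0.132 FPKM in Col0, and the transporter TT12, which shares its locus, had 0.0211 FPKM in cbe1 and 0.181 FPKM in Col0. The tested one, the proton pump gene AHA10, had 0.329 FPKM in cbe1 and 0.240 FPKM in Col0. The part of the storage transcripts in the rise of the early enzymes was not tested. Of 10 genes used as RT-qPCR references, 0 were called, with a median of 0.15, and 2 had an unadjusted p below 0.05; UBQ10 had 606.3 FPKM in cbe1 and 583.3 FPKM in Col0, and EF1A had 614.6 FPKM in cbe1 and 429.0 FPKM in Col0.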

How the data were processed

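TopHat, Cuffdiff and build TAIR10 are named in the submitters' processing notes, without versions. The authors' deposited FPKM values are 1 per gene and genotype. The deposited test statistic is a score whose sign is opposite to that of the log2 fold change. The deposited p-value was the two-sided normal p of that statistic to within 2.74e-06, and the deposited q-value its Benjamini-Hochberg adjustment over the 22303 tested genes to within 2.46e-06. Of the other genes, 11198 had too little signal, and 56 carried the marks LOWDATA, FAIL or HIDATA. Depth is unknown, so no counting interval was given.

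Fold changes were computed from FPKM with no pseudocount, and intervals are the fold change ± 1.96 times its ratio to the statistic. Recentred statistics subtract the median log2 fold change of 18450 tested genes with a mean of at least 1 FPKM, or that of the reference genes, and are adjusted again. No list was tested. The members and lists were chosen with earlier results of these data known, and list membership comes from textbook knowledge of the pathway. Named were all members, CBE1 and, in each list, the calls and the 2 most abundant genes. Other names were chosen after their values were seen.

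Locus coordinates are those of the deposited table, counted from 1. Symbols, products and sequence are those of RefSeq on TAIR10.1, which holds 32810 of the 33557 identifiers. Of 28626 loci with a single gene, 28625 overlapped the RefSeq gene of that name, and all 10 start codons lay inside the deposited loci. Python 3.11.15, numpy 2.4.6, pandas 2.3.3, scipy 1.17.1, matplotlib 3.10.9 and biopython 1.88 were used.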

Additional observations from a re-analysis of the deposited data

How the results depend on the processing

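No paired analysis was possible because the deposited table holds 1 value per genotype, and for the same reason no library could be left out. The 3 rises among the members stayed at 3 with a filter of at least 1 FPKM on the mean or on the higher genotype. They came to 2 (TT4 and FLS1) at q below 0.01 or after recentring on the median gene or the reference genes, and to 0 where the log2 fold change also had to reach 1. For F3H the recentred q was 0.196 on the median gene and 0.168 on the reference genes. The members called lower were 0 throughout. In the other pathway lists the 1 rise came to 0 at q below 0.01 and with either recentring, and the 3 falls lay between 2 and 4. Over all genes, 738 rises and 363 falls became 355 and 207 at q below 0.01, 240 and 146 where the log2 fold change had to reach 1, 296 and 666 recentred on the median gene, and 330 and 614 recentred on the reference genes. The medians of early steps, late steps and regulators moved by less than the typical error of their genes under both pseudocounts and both recentrings, as did the early median with only members alone on their locus. The early median lay between 0.67 and 0.90, and that of the regulators came to 0.26 on log2(FPKM + 1), against 0.56 with no pseudocount. The signs of the 10 members were the same under both pseudocounts and both recentrings. The low level of the late enzymes and of MYB111 limits what can be said of them.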
